A study of Mus musculus with 8 samples.

Results

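Among the genes commonly followed in reactive gliosis, 10 were examined, of 31053 genes in the count tables: Serpina3n, Lcn2, C3, C4b, Cd44, S100a6, Timp1, Steap4, Osmr and Cp. They were chosen by name, as genes known to rise in reactive astrocytes, and the rule uses none of their measured values. Earlier results of these data were known when the choice was made. Cells came from the dentate gyri of 8-week-old male Nestin-GFP+/- mice, 15 days after a sham craniotomy (Control) or a controlled cortical impact on the same side (TBI). The transgene drives GFP from Nestin regulatory sequence, and living GFP-positive cells were sorted before single-cell 3′ RNA sequencing, so every population below is the GFP-bearing fraction of its type. The animals of a condition were pooled into 1 library, and therefore no test between the conditions was possible. All intervals are 95% intervals of counting error only, and differences between animals and between libraries cannot be told apart from the injury.

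The Control library held 3086 cell barcodes with 24723113 unique molecular identifiers (UMIs, 1 per captured RNA molecule), and the TBI library 5081 barcodes with 31543330. Of these, 3049 and 5036 cells were kept. Only 3 barcodes occurred in both libraries. Clusters were named from marker genes after the 10 genes and their relatives had been taken out of the clustering. None of the 10 is a marker, so the names do not rest on them. Of the relatives, S100b is also an astroglia marker and Vcan a marker of oligodendrocyte precursors, so the names rest in part on these. The names are rebuilt here and each stands for a population like that type. Astroglia-like clusters held 740 Control and 707 TBI cells, with all 10 of 10 astroglia markers present in each library and a summed marker level of 27120 and 26480 CPM (UMIs per 1000000 UMIs of the population, counted without Malat1). Depth, taken as UMIs per cell, was higher in Control astroglia, with a median of 3631 UMIs against 2409 in TBI. For oligodendrocytes the medians were 10169 and 8260. A gene was called past the fold when its TBI to Control CPM ratio was at least 2 or at most 0.5 with at least 20 UMIs over both libraries.

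After injury astrocytes enlarge and change their secreted and surface proteins, and in severe lesions they form a scar border. Inflammatory cytokines such as interleukin-6 and oncostatin M act through the JAK–STAT3 pathway, and interleukin-1 and tumour necrosis factor through NF-kB, and both pathways feed acute-phase genes like Serpina3n, Lcn2 and C3. Complement, protease inhibitors and metal-handling proteins are made in this state by glia and by cells of the vessel wall.

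Promoter windows from RefSeq (GRCm38.p6, 250 bases before to 50 after the start of transcription) were matched by symbol for 9 of the 10 genes, and C4b had no entry. The motifs searched on both strands were TTCNNNGAA, the core recognised by STAT factors, GGG and TTTCC with any 2 bases between them, recognised by NF-kB, and TTGCNNAA, recognised by C/EBP factors. They were present in 8.30%, 1.63% and 10.8% of all 32851 windows of this length. The STAT core was found in 1 of the 9 genes, the NF-kB motif in 2 and the C/EBP motif in 4, and 4 genes had none of them. Steap4 was the only one of the 9 with all 3, starting 116, 226 and 87 bases upstream, the second on the reverse strand. Serpina3n had an NF-kB motif 171 bases upstream. Both upstream stretches are shown because Serpina3n differed most clearly between the libraries among the genes with a window and Steap4 holds the most motifs; capitals mark the motifs, and the strand is that of the gene. A match in these letters is a description and not a binding site.
Serpina3n, chr12:104406458-104406707, plus strand: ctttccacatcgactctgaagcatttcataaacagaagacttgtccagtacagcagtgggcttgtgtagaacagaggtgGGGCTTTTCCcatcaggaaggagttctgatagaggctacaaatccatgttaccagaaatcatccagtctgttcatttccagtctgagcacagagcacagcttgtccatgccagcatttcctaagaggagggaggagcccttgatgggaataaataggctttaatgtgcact
Steap4, chr5:7960222-7960471, plus strand: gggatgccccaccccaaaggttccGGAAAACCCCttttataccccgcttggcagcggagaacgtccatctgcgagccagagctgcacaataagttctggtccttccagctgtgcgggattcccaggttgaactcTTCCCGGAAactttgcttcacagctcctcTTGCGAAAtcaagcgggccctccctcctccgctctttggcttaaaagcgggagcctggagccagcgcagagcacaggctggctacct

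In astroglia none of the 10 genes passed the 2-fold limit in either direction. Over all genes with at least 20 UMIs in these cells, 0.579% passed it upward and 1.47% downward. At least 20 UMIs were counted for 5 genes, Serpina3n, C4b, Cd44, S100a6 and Osmr. The other 5 were at or close to 0 in both libraries. Together the 10 genes were measured at 256 CPM (238 to 276) in Control and 278 CPM (254 to 304) in TBI, a ratio of 1.08 (0.965 to 1.22). Most of that sum was S100a6, and without it the ratio was 0.921 (0.740 to 1.14).

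**Figure D1:**
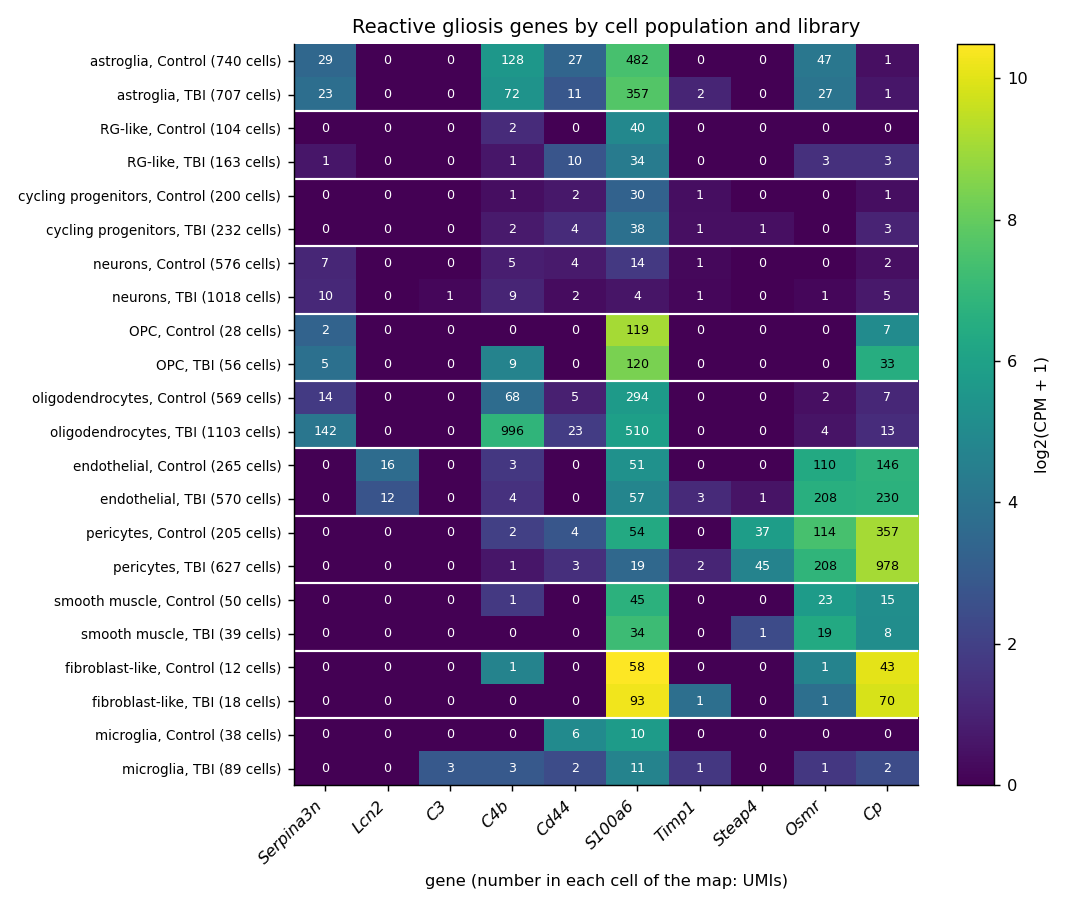
Level of the 10 genes in each cell population and library, as log2(CPM + 1) in colour, with the number of UMIs written in each field. Steap4 UMIs lie mostly in pericytes, Osmr and Cp UMIs mostly in vascular populations, and C4b changes from 68 to 996 UMIs between Control and TBI oligodendrocytes.

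Positions of the genes are those of GENCODE on GRCm38, and the reads of 3′ libraries come from the last exons. Serpina3n (chr12:104406729-104414329, plus strand) encodes a secreted inhibitor of serine proteases and is among the strongest astrocyte responses to inflammation. In astroglia it was found as 29 UMIs in 25 of 740 Control cells and as 23 UMIs in 20 of 707 TBI cells. These correspond to 10.4 CPM (Control) and 12.97 CPM (TBI), a ratio of 1.25 (0.688 to 2.23). No astroglial cell held more than 2 of its UMIs. After each cell was thinned to 2000 UMIs, it was found in 1.480% of 608 Control and 2.18% of 413 TBI cells, with overlapping intervals of 0.679 to 2.79% and 1.00 to 4.10%. In neurons, where little Serpina3n is expected, the thinned shares were 0.176% and 0.399%. Timp1 (chrX:20870166-20874735, plus strand, overlapping Syn1 on the other strand), the inhibitor of matrix metalloproteinases that is strongly induced around acute lesions, gave 0 UMIs in Control and 2 in TBI astroglia, in 2 cells. A count of 0 in 740 cells allows up to 0.405% of cells with a UMI.

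Of the complement genes, C4b was measured in astroglia and C3 was not found. C3 (chr17:57203970-57228136, minus strand), the central component cleaved by all complement pathways and a common marker of neurotoxic reactive astrocytes, had no UMI in astroglia of either library, which allows up to 0.405% of Control and 0.424% of TBI cells. C4b (chr17:34728380-34743882, minus strand), which feeds the classical pathway upstream of C3, was measured in astroglia as 128 UMIs in 86 Control cells and 72 UMIs in 55 TBI cells. Its level was 46.0 CPM (Control) and 40.6 CPM (TBI), a ratio of 0.884 (0.653 to 1.19). At 2000 UMIs per cell the shares were 6.25% and 6.30%, while without thinning they were 11.6% and 7.78% at the unequal depths given above. The neighbouring gene C4a is a close copy, and 94 of 939 read-length windows in the last 500 bases of C4b transcripts also occur in it, so reads from that part cannot be assigned to C4b alone. C4a was not analysed here.

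Cd44 (chr2:102811141-102901665, minus strand) is the hyaluronan receptor of fibrous and reactive astrocytes. It was found as 27 UMIs in 23 Control and 11 UMIs in 11 TBI astroglia, or 9.69 and 6.20 CPM, with a ratio of 0.640 (0.287 to 1.33). This interval spans 1. When every cell was thinned to 2000 UMIs the ratio was 0.499, just past the limit, and with equal weight for each cluster it was 0.442. Osmr (chr15:6813577-6874969, minus strand), the oncostatin M receptor subunit that signals with gp130 to STAT3, was found as 47 UMIs in 35 Control and 27 UMIs in 25 TBI astroglia, or 16.9 and 15.2 CPM, a ratio of 0.902 (0.541 to 1.479). In cells with at most 10% mitochondrial UMIs its ratio was 1.74 on 21 and 24 UMIs.

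S100a6 (chr3:90612882-90624181, plus strand), a calcium-binding protein of the S100 family, was the most abundant of the 10 in astroglia by UMIs. It had 482 UMIs in 271 Control cells and 357 in 238 TBI cells, 173 CPM (158 to 189) and 201 CPM (181 to 223). The ratio of 1.16 had an interval of 1.01 to 1.34 that lay just above 1. At 2000 UMIs per cell S100a6 was found in 19.6% of Control and 24.5% of TBI astroglia. No Lcn2 (chr2:32384633-32388252, minus strand), the iron-siderophore carrier lipocalin-2, and no Steap4 (chr5:7960457-7982213, plus strand), a metalloreductase, was found in any astroglial cell of either library. Cp (chr3:19957054-20009145, plus strand, overlapping Hps3 on the other strand), the copper ferroxidase ceruloplasmin, which astrocytes can carry as a membrane-anchored form, had 1 UMI in each library.

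**Figure D2:**
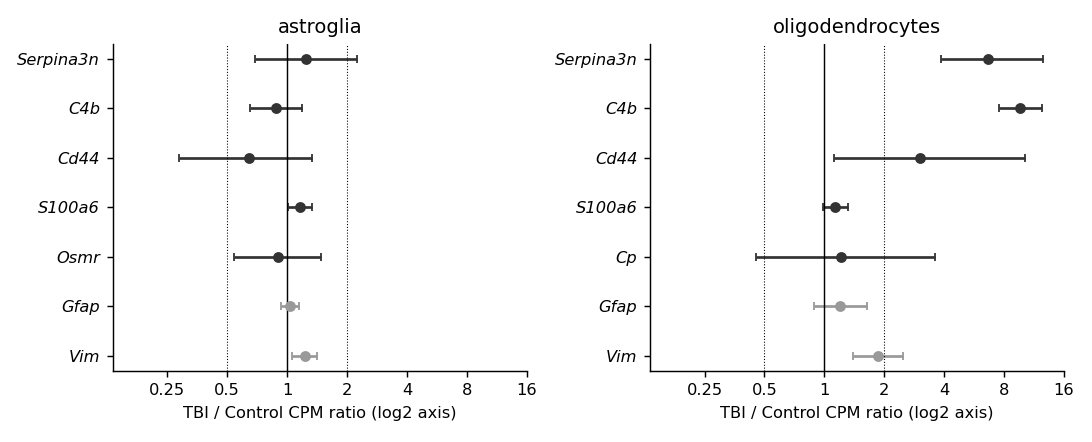
TBI to Control CPM ratio, on a log2 axis, of the genes with at least 20 UMIs in astroglia (left) and oligodendrocytes (right), with exact 95% counting intervals; black points are members of the group of 10, grey points Gfap and Vim, and dotted lines mark the 2-fold limits. In astroglia all points lie between 0.640 and 1.25, whereas in oligodendrocytes C4b lies at 9.60 and Serpina3n at 6.65.

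Few astroglia held several of these genes. In Control 386 of 740 cells had none of the 10, 281 had 1, 60 had 2 and 13 had 3 or more. In TBI 406 of 707 had none, 256 had 1, 39 had 2 and 6 had 3 or more. At 2000 UMIs per cell, 2 or more were found in 19 of 608 Control and 10 of 413 TBI cells, so cells with several of the genes were few in both libraries at this depth. Gfap, the intermediate filament gene of reactive astrocytes, was set beside S100a6 as a description. In thinned TBI cells Gfap was found in 49.5% of the 101 cells with S100a6 and in 32.7% of the rest. In Control the shares were 40.3% of 119 cells and 35.4%. For C4b, Gfap was found in 34.6% of the 26 thinned TBI cells with C4b and in 37.0% of the rest.

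Between the 6 astroglia clusters S100a6 differed far more than between the libraries. It ran from 17.2 and 23.4 CPM (Control, TBI) in cluster 6 to 364 and 450 CPM in cluster 13, and C4b was highest in cluster 6, at 79.6 and 70.3 CPM. Cluster 33, led by Hopx, Fabp7 and Tnc, held 293 and 264 CPM of S100a6. There C4b was found as 18 UMIs in 12 of 55 Control cells and 3 UMIs in 3 of 30 TBI cells. Its ratio of 0.406 (0.0766 to 1.39) passed the fold downward within this cluster, with an interval that spans 1. Over all astroglia 1.47% of genes passed downward, and the share within this small cluster was not computed. In cluster 13 C4b was found as 1 Control UMI and 8 TBI UMIs, or 3.17 and 33.6 CPM, a ratio of 10.6 (1.42 to 471) on fewer UMIs than the fold call requires. This cluster was led by Ttr, a choroid plexus gene, and the 6 ependymal and choroid plexus markers summed to 1437 CPM in all Control astroglia and 222 CPM in TBI, with Ccdc153 and Tmem212 at 0 in both; their part in the results was not tested. In astroglia from 2000 UMIs upward Serpina3n was at 11.2 and 14.2 CPM and C4b at 46.9 and 41.2 CPM.

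Genes related to the 10 by function were followed in astroglia from lists. Gfap was measured at 340 and 352 CPM, a ratio of 1.04 (0.934 to 1.15). Vim, another filament gene of reactive astrocytes, was measured at 157 and 192 CPM, a ratio of 1.23 (1.06 to 1.42). Of 6 pan-reactive genes beyond the 10, 5 had at least 20 UMIs and none passed the fold. The same held for the neurotoxic-type list, with 2 of 12 genes measured, and the injury-type list, also with 2 of 12. Of 16 genes of the interleukin-6 family and STAT3 pathway 11 were measured, and 1 passed downward: Socs3, the feedback inhibitor induced by STAT3, with 18 UMIs in Control and 4 in TBI (ratio 0.349, interval 0.0859 to 1.06). Of 14 protease inhibitors and matrix proteases 10 were measured, and Mmp15, a membrane-bound metalloproteinase, passed downward with 45 and 14 UMIs (ratio 0.489, interval 0.248 to 0.907). None passed among 4 measured complement genes, 13 of iron handling, 7 of CD44 and hyaluronan, and 7 of the S100 family. Beside these counts, 0.579% of all genes measured in astroglia passed upward and 1.47% downward. All 7 S100 genes had ratios above 1, with a median log2 ratio of 0.25, beside −0.02 over all 10882 genes measured in astroglia.

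Oligodendrocytes gave a different picture. C4b and Serpina3n were far more abundant in the 1103 TBI than in the 569 Control oligodendrocytes, and Cd44 was higher at low counts. In this population 1.78% of genes passed the fold upward and 0.762% downward. The 8 oligodendrocyte markers summed to 64100 CPM in Control and 69300 CPM in TBI. Among the 11149 genes with at least 20 UMIs over both libraries, C4b had rank 9 and Serpina3n rank 15 from the highest ratio. Genes above them included Srgn and Slc40a1, with 1 Control UMI each and ratios of 18.4 and 13.8. Of the 10719 genes with at least 10 UMIs in each library, C4b had the highest TBI to Control ratio and Serpina3n the second highest. The next was Cldn5, an endothelial tight-junction gene, with 33 and 318 UMIs and a ratio of 6.32, which was named after its value was seen.

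C4b was found as 68 UMIs in 49 Control oligodendrocytes and as 996 UMIs in 335 TBI oligodendrocytes. Its level was 12.0 CPM in Control and 115 CPM in TBI, a ratio of 9.60 (7.51 to 12.5). Thinned to 2000 UMIs, 2.00% of 549 Control cells (1.00 to 3.56%) and 15.8% of 1013 TBI cells (13.6 to 18.2%) had a C4b UMI. Unthinned shares were 8.61% and 30.4%. In neurons, at a median depth of 10878.5 (Control) and 8163.5 UMIs (TBI) close to that of oligodendrocytes, 0.868% and 0.786% of cells had one. The source of these UMIs in neurons was not tested.

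The 996 TBI UMIs were spread over 335 of 1103 oligodendrocytes, and the other 768 had none. At least 5 C4b UMIs were held by 1 Control cell and by 61 TBI cells, and 12 of these had 10 or more. The single highest cell held 29 of the 996 UMIs, and 59 cells were needed to reach 50% of them. Without the highest cell of each library the ratio was 10.6.

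**Figure D3:**
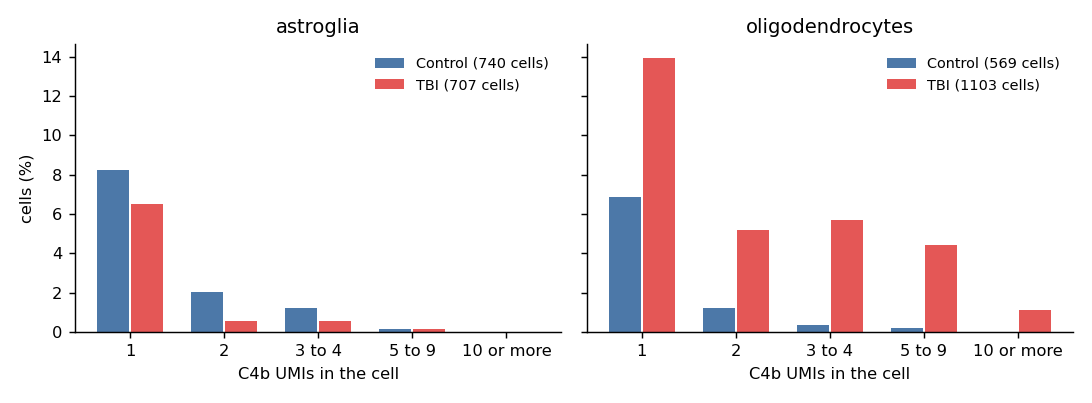
Share of astroglia (left) and oligodendrocytes (right) with 1, 2, 3 to 4, 5 to 9 and 10 or more C4b UMIs, in Control (blue) and TBI (red). In oligodendrocytes every class is larger in TBI, from 14.0% with 1 UMI to 1.09% with 10 or more; in astroglia the TBI shares are 6.51% with 1 UMI and 0 with 10 or more.

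The same direction was seen in each of the 6 oligodendrocyte clusters. In cluster 1 C4b was at 6.63 CPM in Control and 165 CPM in TBI. Clusters 15, 11 and 8 had 16, 16.5 and 16.8 CPM in Control and 141, 101 and 149 CPM in TBI. Cluster 17, with a median of 37.5% and 35.98% mitochondrial UMIs, had 1 UMI in Control and 27 in TBI, or 4.70 and 115 CPM. Cluster 18, with the myelin genes Mal, Cldn11 and Mog among its leading genes, showed the smallest difference, 10.6 against 29.9 CPM, and its TBI interval of 22.8 to 38.5 CPM lay below those of the other 5 clusters. No interval of a Control cluster overlapped that of TBI cells in the same cluster. The 6 clusters are parts of the same 2 libraries and are not replicates, and the share of all genes with such intervals was not computed.

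**Figure D4:**
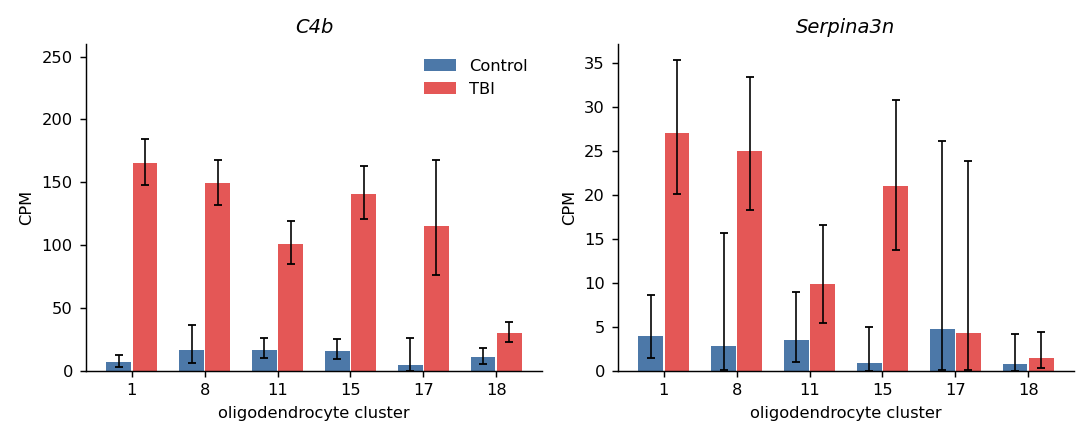
CPM of C4b (left) and Serpina3n (right) in the 6 oligodendrocyte clusters, in Control (blue) and TBI (red); bars start at 0 and lines are exact 95% Poisson intervals. C4b is higher in TBI in each cluster, and Serpina3n most clearly in clusters 1, 8 and 15.

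Serpina3n was higher in TBI in the same population. It was found as 14 UMIs in 11 Control cells and 142 UMIs in 96 TBI cells, 2.47 and 16.4 CPM, with a ratio of 6.65 (3.83 to 12.5). In thinned cells the shares were 0.546% and 2.76%. The difference was clearest in clusters 1 (3.98 and 27.0 CPM), 8 (2.81 and 25.04 CPM) and 15 (0.889 and 21.0 CPM). Cluster 11 had 4 and 14 UMIs, or 3.48 and 9.90 CPM, a ratio of 2.84 (0.893 to 11.9) whose interval spans 1. Clusters 17 and 18 each had 1 Control UMI, and 1 and 3 TBI UMIs. In thinned TBI cells Serpina3n was found in 6.88% of the 160 cells with C4b and in 1.99% of the others, that is, 11 of its 28 cells also held C4b.

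Cd44 was at 0.881 CPM in Control and 2.66 CPM in TBI oligodendrocytes, with 5 and 23 UMIs and a ratio of 3.02 (1.12 to 10.2). This rested on 4 and 18 cells, and with cells thinned to 2000 UMIs it was 0.805 on 2 and 3 UMIs. S100a6 was at 51.8 and 58.9 CPM, a ratio of 1.14 (0.983 to 1.32). Cp had 7 and 13 UMIs and Osmr 2 and 4, and Lcn2, C3, Timp1 and Steap4 had none in oligodendrocytes of either library, where 0 of 1103 TBI cells allows up to 0.272% of cells with a UMI.

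Markers of other cells were also followed in oligodendrocytes. The 8 endothelial markers, each with a UMI in both libraries, summed to 30.9 CPM in Control and 105 CPM in TBI. The 8 pericyte markers, also each with a UMI in both libraries, summed to 8.46 and 19.8 CPM. Astroglia markers summed to 454 and 379 CPM, and microglia markers to 25.7 and 24.0 CPM. The endothelial sum lay mostly in cluster 8, at 379 and 395 CPM, which also held 34 of the 41 cells called doublets and 86.6% of whose cells were from TBI. Without cluster 8 the C4b ratio was 9.08 and the Serpina3n ratio 5.76. In cluster 15, endothelial markers were at 10.7 and 10.5 CPM while C4b was at 16 and 141 CPM. In cluster 18 these markers were at 3.03 and 61.3 CPM while C4b was at 10.6 and 29.9 CPM. The marker sums were 7.96 and 9.86 CPM in cluster 1, 5.22 and 11.3 in cluster 11, and 28.2 and 38.5 in cluster 17. Endothelial cells themselves had 3 C4b UMIs in Control and 4 in TBI, and no Serpina3n UMI. The part of RNA from other cells in the C4b and Serpina3n values was not tested.

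The share of each gene's UMIs held by a population depends on its number of cells as well as on its level. Astroglia were 24.3% of Control and 14.0% of TBI cells, and oligodendrocytes 18.7% and 21.9%, and the 2 contributions were not separated. Of all C4b UMIs in the Control library, 56.6% were in astroglia and 30.1% in oligodendrocytes. In TBI the shares were 6.39% and 88.5%. For Serpina3n the astroglia held 55.8% in Control and 12.5% in TBI, and the oligodendrocytes 26.9% and 77.2%.

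Relatives of the 10 in oligodendrocytes were examined after this pattern was known. Beside the 1.78% of all genes that passed upward, 2 of 4 measured genes of the neurotoxic-type list and 1 of 3 of the pan-reactive list did. H2-D1, a class I histocompatibility heavy chain of the former, was at 25.6 CPM in Control and 101 CPM in TBI, a ratio of 3.97 (3.33 to 4.76). Hspb1, a small heat shock protein of the latter, was at 1.59 and 8.78 CPM. Both were picked after their values were seen. In thinned TBI cells H2-D1 was found in 23.8% of the cells with C4b and in 10.2% of the others. Of 6 measured genes of the complement list none passed the fold upward, and 1, C1qb, passed downward on 15 and 7 UMIs. Over the lists of iron handling and CD44 and hyaluronan, 2 of 11 and 1 of 7 measured genes passed upward, and 0 and 1 passed downward. None passed in either direction among 3 measured genes of the injury-type list, 10 of protease inhibitors and matrix proteases and 5 of the S100 family. The interleukin-6 and STAT3 list had 1 of 11 upward, Socs3 with 4 and 27 UMIs. By ratio, H2-D1 ranked 7 among genes with at least 10 UMIs in each library. Ranked close to it were Pltp, Klf4, Klf2 and Itm2a, which lead an endothelial cluster, and Pcp4, Anxa2 and Fosb, which do not. Endothelial markers in oligodendrocytes summed to 30.9 CPM in Control and 105 CPM in TBI. The part of RNA from other cells in the H2-D1, Hspb1, Socs3 and other list values was not tested.

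Oligodendrocyte precursor cells (OPC) were few, 28 in Control and 56 in TBI. The 8 oligodendrocyte markers summed to 23290 CPM in Control OPC and 5601 CPM in TBI OPC, and the 8 OPC markers to 4387 and 5968 CPM. The OPC of the 2 libraries thus differed in their markers, and the part of this difference in the values below was not tested. C4b had 0 UMIs in Control and 9 UMIs in 7 TBI cells, and Serpina3n 2 and 5 UMIs. Cp was measured at 31.8 CPM in Control and 90.3 CPM in TBI, with 7 UMIs in 5 cells and 33 UMIs in 19 cells, a ratio of 2.84 (1.23 to 7.60). In cells this few, 7.97% of genes passed the fold upward and 5.92% downward. S100a6 was at 541 and 328 CPM, and 49 of its 119 Control UMIs came from 1 cell.

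Most UMIs of Steap4, Osmr and Cp were in cells of the vessel wall in these data. Pericytes, the contractile cells that wrap capillaries, held 97.4% of Steap4 UMIs in Control and 81.8% in TBI. Of Osmr UMIs, 37.5% and 42.3% were in pericytes, 36.2% and 42.3% in endothelial cells, and 15.5% and 5.49% in astroglia. Of Cp UMIs, pericytes held 59.3% and 69.0%.

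In pericytes Cp was measured at 537 CPM (483 to 596) in 205 Control cells and 541 CPM (507 to 576) in 627 TBI cells. The ratio of 1.01 (0.891 to 1.14) is among the narrowest obtained, and 71.2% and 71.9% of pericytes had a Cp UMI. The pericyte clusters lay on both sides of 1. The Cp ratio was 1.22 (1.04 to 1.42) in cluster 0, 0.829 (0.664 to 1.04) in cluster 5 and 1.23 (0.544 to 3.46) in cluster 30. Osmr was at 171 and 115 CPM, a ratio of 0.671 (0.531 to 0.850). By cluster the Osmr ratio was 0.841 (0.605 to 1.17) in cluster 0, 0.486 (0.340 to 0.704) in cluster 5 and 0.353 (0.0952 to 1.95) in cluster 30. Steap4 was at 55.7 CPM in Control, with 37 UMIs in 22 cells, and at 24.9 CPM in TBI, with 45 UMIs in 35 cells, a ratio of 0.447 (0.283 to 0.710). In pericytes 3.87% of genes passed the fold upward and 2.11% downward. The Steap4 difference came mainly from cluster 5, which holds 44 Control and 260 TBI cells and a summed level of 8 immediate-early genes of 20240 and 25000 CPM. There Steap4 was at 137 and 33.9 CPM, against 27.5 and 18.5 CPM in cluster 0. Without cluster 5 its ratio was 0.633, without the highest cell of each library 0.533, and with at most 10% mitochondrial UMIs 0.528, all of which miss the fold; thinned to 2000 UMIs it was 0.881 on 7 and 19 UMIs.

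S100a6 in pericytes passed the fold downward, 81.2 against 10.5 CPM, but on 9 Control and 8 TBI cells. Of the 54 Control UMIs 52 were in cluster 5, in 7 cells, and the highest cell held 23. Without cluster 5 there were 2 and 4 UMIs.

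Endothelial cells carried Cp at 109 and 106 CPM and Osmr at 82.2 and 96.2 CPM, with ratios of 0.975 (0.789 to 1.21) and 1.17 (0.924 to 1.49). All Lcn2 of the series was in these cells, 16 UMIs in 5 of 265 Control cells and 12 UMIs in 2 of 570 TBI cells. One TBI cell held 11 of the 12, so the downward call (ratio 0.464, interval 0.200 to 1.05) rests on 7 cells; with doublets removed it turned to 1.32 on 5 and 11 UMIs. In this population 2.09% of genes passed upward and 0.976% downward. Smooth muscle cells held Osmr at 53.4 and 81.6 CPM and Cp at 34.8 and 34.3 CPM, on 50 and 39 cells. The 30 fibroblast-like cells were the richest in S100a6, at 1429 and 1228 CPM, and in Cp, at 1059 and 924 CPM, neither past the fold. Of all genes measured in smooth muscle 4.88% passed upward and 3.97% downward, and in fibroblast-like cells 14.6% and 5.14%.

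**Figure D5:**
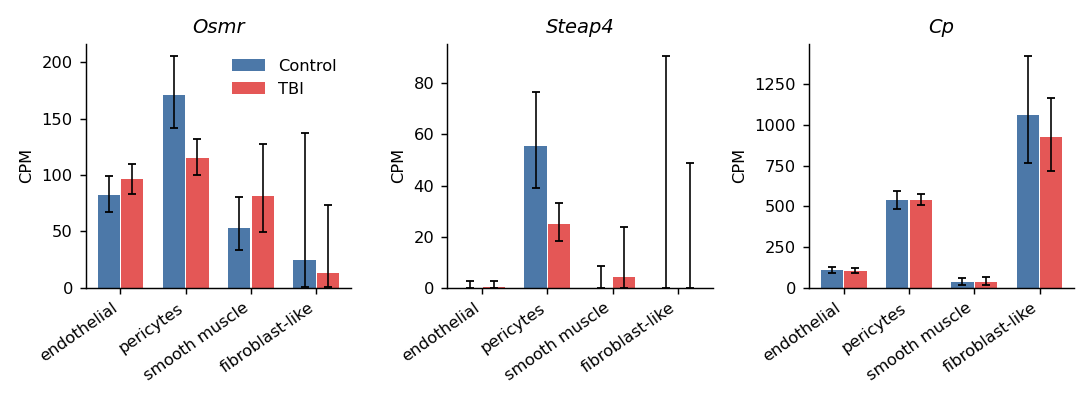
CPM of Osmr, Steap4 and Cp in endothelial cells, pericytes, smooth muscle and fibroblast-like cells, in Control (blue) and TBI (red); bars start at 0 and lines are exact 95% Poisson intervals. Steap4 is seen in pericytes at 55.7 CPM (Control) and 24.9 CPM (TBI), while Cp in pericytes is at 537 and 541 CPM.

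Microglia and the neurogenic lineage held few UMIs of the 10 genes. In the few microglia the 10 together were at 84.5 CPM (48.3 to 137) in Control and 51.2 CPM (32.4 to 76.8) in TBI. C3, which microglia are known to make, was found as 0 UMIs in 38 Control and 3 UMIs in 89 TBI microglia, in 2 cells, and its only other UMI was in 1 TBI neuron. Cd44 had 6 UMIs in 2 Control and 2 UMIs in 2 TBI microglia. S100a6 passed the fold downward there, 52.8 against 24.5 CPM, on 2 and 3 cells, where 4.99% of genes passed upward and 3.50% downward. In radial glia-like (RG-like) cells Cd44 had 0 UMIs in 104 Control cells and 10 UMIs in 9 of 163 TBI cells. In thinned cells it had none in either library. The median depth of RG-like cells was 14199.5 UMIs in Control and 10831 in TBI. Thinning to 2000 UMIs leaves few of 10 UMIs at these depths, so the absence in thinned cells cannot decide whether the libraries differ. S100a6 in RG-like cells was at 28.5 and 19.5 CPM, and in cycling progenitors at 8.81 and 13.4 CPM. Neither passed the fold, which 2.0% and 1.86% of genes passed upward in these populations and 1.23% and 0.676% downward. In neurons, where 1.26% and 1.03% of genes passed, none of the 10 had the 20 UMIs over both libraries that a call requires. S100a6 had 14 UMIs in Control and 4 in TBI neurons, a ratio of 0.214 (0.0513 to 0.682). Serpina3n and C4b together gave at most 2 UMIs per library in either progenitor population. Timp1 reached 14 UMIs in all cells, 2 in Control and 12 in TBI, in 2 and 11 cells.

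For the 3 genes with most UMIs, the genes with the most similar pattern over the 22 combinations of population and library were ranked among 11978 genes by Pearson correlation of log2(CPM + 1), as a description over points that share 2 libraries and their depth. Cp was most like Spry1 (r = 0.952), Cdc42ep5 (0.942) and Lama4 (0.938). S100a6 was most like Cpq (0.861), Slc35b4 (0.838) and Antxr1 (0.812), and C4b most like Abhd4 (0.803), Lrrc75b (0.788) and Folh1 (0.781).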

How the data were processed

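The authors sequenced 10x v3 3′ libraries and counted UMIs with Cell Ranger 3.0.2 (submitters' processing notes) against mm10, and the deposited values are raw UMI counts per gene and barcode. The labels list 4 Control and 4 TBI animals and the study's methods give other numbers for these libraries, so the number of animals in a pool is not settled here. Each condition is 1 pooled table, assigned from the barcodes that the study lists by condition (356 of 356 and 320 of 320 in 1 table, 0 in the other). Barcodes under 200 genes, or whose log UMI total lay over 3 median absolute deviations from their library's median, were left out, and the rest were clustered with Seurat 5.3.0 (20 dimensions, resolution 3) without Malat1, the 10 genes and the related lists. Of 42 clusters, 35 were named from mean marker scores; that only types with at least 3 markers in at least 10% of cells could be given was settled after the clusters were seen. Clusters led by another class's markers, or with under 0.333 of the library's median UMIs and no leading marker, stayed unnamed (262 Control and 414 TBI cells). "Like" is left out of the names for brevity. Doublets (Scrublet in scanpy) were marked and kept, and removed in an alternative.

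Summed UMIs per population gave CPM with exact Poisson intervals, shares with Clopper-Pearson intervals, and ratios with exact conditional binomial intervals; 3 counts set the limit for a 0. UMIs are molecules, not reads, but intervals cover counting error only. Code was tested on simulated data. Named were all 10 genes, list genes past the fold in astroglia, Gfap, Vim and the genes most alike in pattern; others are marked as picked later. The 10 genes and all lists were chosen with earlier results of these data known.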

Additional observations from a re-analysis of the deposited data

Results flagged for a closer look

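C4b lay on opposite sides of 1 in 2 populations of the same libraries, although the astroglia interval of 0.653 to 1.19 spans 1. Its TBI to Control CPM ratio was 9.60 in oligodendrocytes and 0.884 in astroglia, and the difference between the 2 ratios was not tested, because each condition is 1 library. Cd44 had a ratio of 3.02 on 5 and 23 UMIs in oligodendrocytes and of 0.640 on 27 and 11 UMIs in astroglia, also not tested. The astroglia interval of 0.287 to 1.33 spans 1, and with cells thinned to 2000 UMIs both ratios were below 1, at 0.805 on 2 and 3 UMIs and 0.499 on 15 and 5. The clusters left without a name held 262 Control and 414 TBI cells, and none of the ratios reported above used them. In these clusters Cp was measured at 19.1 CPM in Control and 38.7 CPM in TBI, a ratio of 2.03 (95% interval 1.25 to 3.401). Their makeup also differed between the libraries. Pericyte markers summed to 1164 CPM in Control and 2405 CPM in TBI, and endothelial markers to 443 and 1401 CPM. Smooth muscle markers went the other way, at 1111 and 466 CPM. The part of this difference in the Cp value was not tested. S100a6 passed the fold downward there on 16 and 10 UMIs, a ratio of 0.410 (0.167 to 0.962). Of 10594 genes measured in these clusters, 4.19% passed upward and 2.46% downward.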

How the results depend on the processing

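No paired analysis was possible because each condition is 1 library of pooled animals, and for the same reason no replicate could be left out. The C4b and Serpina3n ratios in oligodendrocytes stayed past the fold in all 12 alternatives run for each, at 8.68 to 11.1 and 5.34 to 9.98. In astroglia 1 gene passed, Cd44, when cells were thinned to 2000 UMIs, when clusters had equal weight and when the fold was 1.5; the other 10 of 13 alternatives gave 0. The summed level of the 10 genes in astroglia had a ratio of 1.22 after thinning and 1.08 to 1.16 in the other 9 alternatives; a UMI minimum cannot change it. Of 28 gene and population pairs with at least 20 UMIs, astroglia included, 8 passed the fold, all of them outside astroglia. In the populations concerned, the share of all genes past the fold ran from 1.78% upward and 0.762% downward in oligodendrocytes to 7.97% and 5.92% in OPC. These shares and those given for astroglia belong to the settings as reported. They were not computed for the alternatives, so the counts under the alternatives have no share of all genes beside them. Thinning left 4 pairs outside astroglia, a minimum of 50 UMIs also 4, and leaving out the highest cell 5. Each of these leaves fewer UMIs or pairs to count. The other 11 alternatives gave 6 to 11. Of 314 values for 28 pairs, 295 stayed within the interval of the reported ratio, 16 moved and 3 reversed: Lcn2 in endothelial cells (1.32 with doublets removed), Cd44 in oligodendrocytes (0.805 thinned) and S100a6 in pericytes (1.03 without cluster 5). Only the 8 pairs past the fold as reported could be counted as reversed. Other pairs also lay on both sides of 1, such as Osmr in astroglia at 0.793 to 1.74 and Cp in smooth muscle at 0.772 to 2.83. Thinned to 1000 UMIs, the ratio of C4b shares in oligodendrocytes was 9.61 in place of 7.88. Removing single clusters and equal cluster weights were chosen after seeing the data. Depth limits the low genes: in astroglia 3 UMIs equal 1.08 CPM in Control and 1.69 CPM in TBI.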
